A study of Rattus norvegicus with 27 samples.

Results

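CpG methylation was compared between rats given GapmeRs against Dnmt3a and Tet3 and rats given a scrambled GapmeR, all on high salt. The 8 libraries were chosen by their group labels and are part of 27 libraries in 7 groups. Each library is reduced representation bisulfite sequencing (RRBS) of the renal outer medulla of 1 Dahl salt-sensitive rat of the MCW SS colony, an inbred line whose blood pressure rises on dietary salt. The HS_DT rats (n = 4) had 2 GapmeRs delivered into the kidney, at 2 mg/kg for each target, and ate 4% NaCl. Their time on that diet is written as 7 with no unit. The HS_SCR rats (n = 4) had 4 mg/kg of a scrambled GapmeR by the same route and ate 4% NaCl for 7 days. The PRE_LS rats (n = 4) had the same surgery, ate 0.4% NaCl and were sampled before the GapmeR and diet would have started, so they differ from both other groups in diet, GapmeR and time. A treatment label of the HS_DT rats reads Dnmt3 where the protocol reads Dnmt3a, and the labels give neither sex nor, for these groups, age.

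A GapmeR is an antisense oligonucleotide with modified ends and a central stretch of DNA, through which RNase H cuts the bound RNA. Dnmt3a places methyl groups on CpGs that carried none, and Tet3 oxidises methylcytosine as a first step of its removal, so the 2 targets work on methylation in opposite directions. The outer medulla holds the thick ascending limbs, which reabsorb sodium chloride and are a site of interest in salt-sensitive hypertension. The tables hold no expression, so the levels of Dnmt3a and Tet3 RNA were not measured here and the knockdown could not be checked.

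The methylation level of a rat is its share of methylated counts, as a percentage. The 8 libraries held 204603254 to 234553496 CpG read counts, with a median depth of 73 to 88 reads at the 1219703 CpGs that had at least 10 reads in all 12 libraries of the table (common CpGs). HS_SCR replicate 4 tended to lie lower than the other rats of its group. Over tested bins of 500 bp it lay 1.38 points below the other HS_SCR rats on average (a signed distance of -1.38), and it was above them in 38.3% of bins, against 48.7 to 57.2% for the other 7 rats. In this bulk tissue a change in cell makeup and a change within cells cannot be told apart.

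The files name no genes. Gene starts were placed by matching the spacing of CpGs in RefSeq promoter sequences (GRCr8, from 250 bases before to 50 after a start) to the listed CpG positions of rn5, which located 8082 promoters of 7374 genes. The sequences below carry the results that follow. Foxo4 and Plekhg5 had the smallest p-values among the located promoters, Plagl1 and Igf2r are imprinted genes with partly methylated promoters, and Tet3 is a GapmeR target. Each is read 5′ to 3′ on the gene's strand, and capitals mark the CpGs that were measured in all 12 libraries. The places, in rn5 and correct to within 1 base, are chrX:72007828-72008127 (plus strand) for Foxo4, chr5:172827560-172827859 (plus) for Plekhg5, chr1:8856782-8857081 (plus) for Plagl1, chr1:51577102-51577401 (minus) for Igf2r and chr4:179746938-179747237 (minus) for the upstream start of Tet3.
Foxo4: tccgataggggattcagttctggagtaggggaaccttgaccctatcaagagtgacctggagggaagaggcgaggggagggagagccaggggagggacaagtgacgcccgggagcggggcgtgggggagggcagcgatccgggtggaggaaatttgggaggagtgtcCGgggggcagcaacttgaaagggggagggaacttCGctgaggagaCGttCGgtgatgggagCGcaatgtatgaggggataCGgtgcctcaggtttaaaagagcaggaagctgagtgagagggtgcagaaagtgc
Plekhg5: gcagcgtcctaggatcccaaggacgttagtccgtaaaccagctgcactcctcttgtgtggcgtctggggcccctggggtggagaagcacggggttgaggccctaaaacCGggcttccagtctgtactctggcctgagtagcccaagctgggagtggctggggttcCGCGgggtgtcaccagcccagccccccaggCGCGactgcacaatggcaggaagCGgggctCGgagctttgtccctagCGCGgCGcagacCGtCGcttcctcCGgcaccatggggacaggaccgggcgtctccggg
Plagl1: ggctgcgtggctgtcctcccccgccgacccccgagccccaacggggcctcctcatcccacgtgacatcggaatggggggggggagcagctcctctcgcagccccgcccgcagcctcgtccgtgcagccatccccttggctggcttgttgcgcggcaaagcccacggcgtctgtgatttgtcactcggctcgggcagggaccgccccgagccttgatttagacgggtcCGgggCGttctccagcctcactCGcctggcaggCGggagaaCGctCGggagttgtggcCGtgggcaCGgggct
Igf2r: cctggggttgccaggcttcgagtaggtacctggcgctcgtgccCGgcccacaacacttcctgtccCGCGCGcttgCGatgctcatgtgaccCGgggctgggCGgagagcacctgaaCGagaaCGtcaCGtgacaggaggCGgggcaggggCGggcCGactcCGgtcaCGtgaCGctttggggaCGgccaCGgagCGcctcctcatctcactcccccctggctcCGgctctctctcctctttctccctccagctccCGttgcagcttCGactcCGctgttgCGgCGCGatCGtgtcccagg
Tet3: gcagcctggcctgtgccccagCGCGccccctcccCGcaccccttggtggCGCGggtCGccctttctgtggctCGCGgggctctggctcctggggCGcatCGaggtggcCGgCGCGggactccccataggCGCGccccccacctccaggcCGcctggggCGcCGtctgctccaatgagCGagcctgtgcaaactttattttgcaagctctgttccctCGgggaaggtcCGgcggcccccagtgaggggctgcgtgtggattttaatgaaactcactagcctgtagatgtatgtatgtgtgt

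The 300-base sequences of Foxo4, Plekhg5, Plagl1, Igf2r and Tet3 hold 14, 21, 29, 30 and 23 CpGs, of which 6, 13, 8, 27 and 21 were common CpGs. Each holds at least 1 CCGG, the recognition sequence of the MspI enzyme used for RRBS (the motif reads the same on both strands), with 3 in Foxo4, 4 in Plekhg5, 1 in Plagl1, 4 in Igf2r and 2 in Tet3. Of all 33469 RefSeq promoter sequences of this length, 51.4% hold CCGG.

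Mean methylation over all common CpGs showed no difference between the GapmeR groups that passed the test. The 4 HS_DT rats had 29.81, 29.76, 29.69 and 29.70%, and the 4 HS_SCR rats had 29.99, 29.85, 29.92 and 29.23%. All HS_DT rats lay below the other 3 HS_SCR rats and above HS_SCR replicate 4. The means were 29.7% ± 0.0543 (SD, n = 4) and 29.7% ± 0.3496, a difference of -0.00819 points with an SE of 0.177 (exact two-sided permutation test, p = 1, where 0.0286 is the smallest possible). Without HS_SCR replicate 4 the difference was -0.181 points (exact permutation p = 0.0571, the smallest that 4 against 3 rats allow). That p follows from the order of the rats just given, since the rat left out is the only HS_SCR rat below the HS_DT rats. With each rat left out in turn the difference ran from -0.181 to 0.0719 points (exact permutation p from 0.0571 to 0.914). PRE_LS rats had 29.7% ± 0.0930. Weighted by reads the difference was -1.41 points (exact permutation p = 0.143), with HS_DT rats from 21.8 to 23.5% and HS_SCR rats from 23.2 to 25.4%.

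No class of CpGs showed a difference that passed either. CpGs of 20 to 80% mean level had 50.03% ± 0.262 in HS_DT and 49.9% ± 0.873 in HS_SCR, a difference of 0.0954 points (SE 0.456), and those over 80% had 91.3% ± 0.234 and 91.3% ± 0.545. CpGs under 20% had 1.80% ± 0.0927 and 1.87% ± 0.133. Within 250 bases of a located gene start, where the 184818 common CpGs were nearly free of methylation, levels were 1.31% ± 0.00504 and 1.32% ± 0.0319. Over 50000 bases from any located start they were 40.3% ± 0.0627 and 40.3% ± 0.440. In CpG-dense bins (20 or more common CpGs) they were 3.07% ± 0.0350 and 3.11% ± 0.0947. By chromosome, the difference ran from -0.0678 points on chromosome 20 to 0.0237 on chromosome 18. The exact permutation test gave an adjusted p from 0.667 to 1 within families of 3 level classes, 4 density classes, 5 distance classes and 21 chromosomes.

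**Figure D1:**
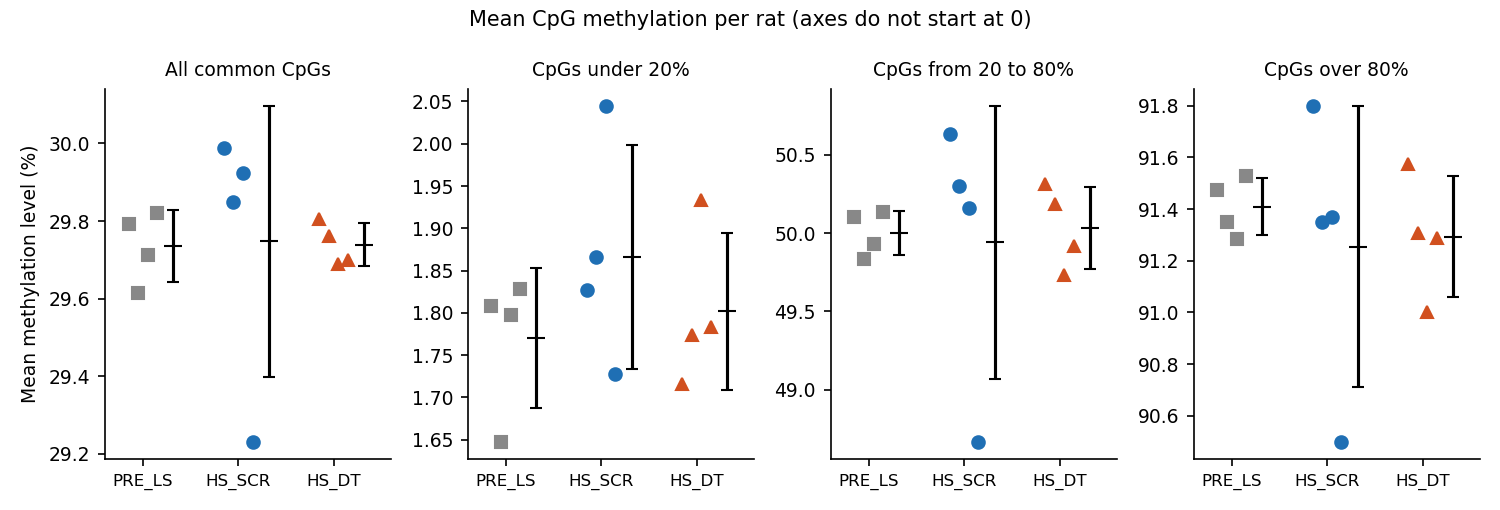
Mean methylation level per rat (%, y axes not starting at 0) over all common CpGs and over CpGs of low, intermediate and high level; points are rats and black marks the group mean ± SD (n = 4). HS_SCR replicate 4 is the lowest point in each panel except the one for CpGs under 20%, where PRE_LS replicate 2 is the lowest.

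The spread between rats was a little larger in HS_SCR than in HS_DT. The median SD of a bin was 2.69 points in HS_DT, 2.95 in HS_SCR and 2.71 in PRE_LS, and the SD was larger in HS_SCR than in HS_DT in 55.8% of bins. HS_SCR replicates 1, 3 and 4 were the farthest from their group, with a median distance of 2.54, 2.65 and 2.57 points, against 2.23 to 2.33 for the HS_DT rats. No test was made of this difference in spread.

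No 500 bp bin passed the test between HS_DT and HS_SCR. Counts were summed over fixed bins with at least 3 common CpGs and a pooled level of 5 to 95%, and fitted with a quasi-binomial model with limma-moderated dispersion. Of 96356 bins 0 had an adjusted p below 0.05 (0%), and limma on log2 ratios also called 0. An unadjusted p below 0.05 was reached by 4248 bins (4.41%), with 2252 higher (2.34%) and 1996 lower in HS_DT (2.07%). The groups did not overlap in 2468 bins (2.56%), 1284 higher (1.33%) and 1184 lower (1.23%). The median size of the difference was 1.45 points beside a median SE of 2.17 points, and 95% of differences lay between -6.04 and 6.12 points. A difference over 10 points was found in 791 bins (0.821%) and over 20 points in 20 bins. The wider 5000 bp windows gave 0 of 17194 (0%), with 652 below 0.05 before adjustment (3.79%), 369 without overlap between the groups (2.15%) and 0 by limma. Single CpGs gave 0 of 527815 (0%), with 25962 below 0.05 before adjustment (4.92%), 13547 without overlap (2.57%), 0 by edgeR (20507 unadjusted) and 0 by limma.

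**Figure D2:**
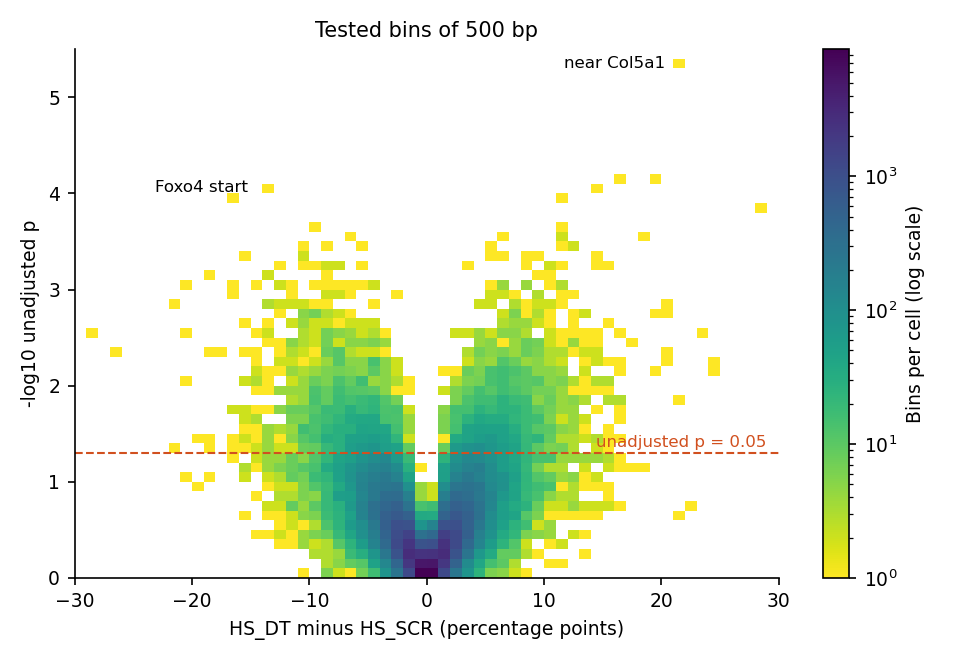
Difference HS_DT minus HS_SCR (percentage points, x axis) against -log10 of the unadjusted p (y axis) for the 96356 tested bins of 500 bp; colour gives the number of bins per cell on a log scale and the dashed line an unadjusted p of 0.05. Both sides of 0 are filled about evenly, and the bin near Col5a1 lies above all others with a p of 4.46e-06.

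The regions described next are the 12 bins per direction with the smallest p among bins of at least 5 common CpGs whose groups do not overlap. They were picked for that separation, so it is a description and none passed the adjusted test. Their differences ran from 5.83 to 21.8 points in size, and 150 of their 168 CpGs differed in the direction of the bin. Of the 24 bins 16 were over 50 kb from a located gene start, near the share of all tested bins (68.3%), which needed only 3 common CpGs. Only part of the promoters could be located, so a nearer start may be missing.

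The smallest p belonged to a bin upstream of Col5a1, which encodes a chain of the fibrillar collagen type V. The bin is chr3:11673501-11674000 (8 CpGs, 117 to 351 reads per rat), 115104 bases from the Col5a1 start between the located starts of Vav2 and Col5a1. Levels were 50.7, 54.3, 52.7 and 50.3% in the HS_DT rats and 38.5, 29.2, 25.3 and 27.9% in the HS_SCR rats. Every HS_DT rat was above every HS_SCR rat, and all 8 CpGs were higher in HS_DT, by 2.19 to 34.0 points. The means were 52.0% ± 1.84 and 30.2% ± 5.73 (difference 21.8 points, SE 3.01, unadjusted p = 4.46e-06, adjusted p = 0.430 by the limma-moderated quasi-binomial model). The PRE_LS rats had 68.2, 32.5, 37.7 and 49.0%, a spread that overlaps both groups. At a minimum of 20 reads in all 12 libraries this bin was no longer among the tested bins. The smallest adjusted p over bins was then 0.9995 (limma-moderated quasi-binomial model).

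The other bins higher in HS_DT are named here by the nearest located start, and none of the 12 lay within 10 kb of one. A bin 10576 bases upstream of Tcf15, a transcription factor of somite and muscle development (chr3:153981001-153981500, 5 CpGs), had 24.3, 29.1, 28.0 and 27.3% in HS_DT against 13.4, 11.7, 19.3 and 16.3% in HS_SCR. A bin 16146 bases downstream of the start of Errfi1, a feedback inhibitor of the EGF receptor (chr5:171545501-171546000, 6 CpGs), had 30.7, 39.4, 36.8 and 33.0% against 27.8, 22.3, 21.03 and 22.5%, and all 6 CpGs were higher. At Errfi1 the PRE_LS mean of 31.9% was closer to HS_DT. A bin 40543 bases upstream of Lrp2, which encodes the endocytic receptor megalin of the proximal tubule (chr3:62475501-62476000, 7 CpGs), had 25.9, 20.6, 25.9 and 30.9% against 14.0, 19.2, 11.1 and 12.3%. The gap there was narrow, from 19.2% in HS_SCR replicate 2 to 20.6% in HS_DT replicate 2, although all 7 CpGs were higher in HS_DT. A bin 52318 bases downstream of the start of Eftud2, a GTPase of the spliceosome (chr10:90703501-90704000, 5 CpGs, 67 to 208 reads per rat), had 66.8% ± 7.19 against 48.0% ± 3.01. A bin whose nearest located start is Cast, the calpain inhibitor calpastatin, 1129717 bases away (chr2:400501-401000), had 56.8% ± 1.31 against 42.4% ± 4.05.

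On chromosome 1, a bin 231824 bases downstream of the start of Pepd, which encodes prolidase (chr1:92189501-92190000), had 62.8% ± 1.96 in HS_DT and 51.3% ± 3.59 in HS_SCR. Another, nearest to the zinc-finger gene Zfp382 but 90936 bases from its start (chr1:89833001-89833500), had 64.4% ± 2.85 and 52.9% ± 2.99. These bins rose and fell together over the rats, within 3.13 points of each other in each of the 12, the closest pair among the 24 bins. Whether they share sequence was not tested. At both the PRE_LS mean, 49.8% and 50.5%, lay below that of HS_SCR. The bins nearest to Rps19bp1, Mis18a, Mocs3 and Trip10 were 102622 to 2195680 bases from those starts and differed by 6.64, 12.9, 5.83 and 12.5 points.

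The bin lower in HS_DT with the smallest p covers the start of Foxo4, a forkhead transcription factor restrained by insulin and growth factor signalling. The bin is chrX:72008001-72008500 (9 CpGs, 218 to 451 reads per rat). Levels were 21.8, 16.9, 18.8 and 22.4% in HS_DT, 34.8, 34.6, 29.3 and 36.6% in HS_SCR and 32.6, 41.2, 24.8 and 33.0% in PRE_LS. All 4 HS_DT rats lay below all 8 others. The means of HS_DT and HS_SCR were 19.99% ± 2.57 and 33.8% ± 3.12 (difference -13.8 points, SE 2.02, unadjusted p = 8.70e-05, adjusted p = 0.9998 by the limma-moderated quasi-binomial model).

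CpG by CpG, 9 of the 10 common CpGs from 1000 bases before to 500 after the Foxo4 start were lower in HS_DT and 1 had no methylated read in either group. At 6 CpGs the groups did not overlap, as at 2.57% of all tested CpGs. Most of the Foxo4 CpGs lie in the bin above, which was picked for separate groups, so their separation is a description. The largest difference was at position 53 counted from the start, with 23.5% ± 5.16 in HS_DT and 47.6% ± 7.16 in HS_SCR. At position -35, within the printed Foxo4 sequence, levels were 25.5% ± 3.97 and 46.6% ± 8.47. Levels fell to 8.06% ± 1.61 and 10.2% ± 2.37 at position 86 and to 0 at position 114, so the separated CpGs lie between positions -84 and 60. These CpGs were covered by 21 to 90 reads per rat, in part the same reads, and are not independent of each other.

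**Figure D3:**
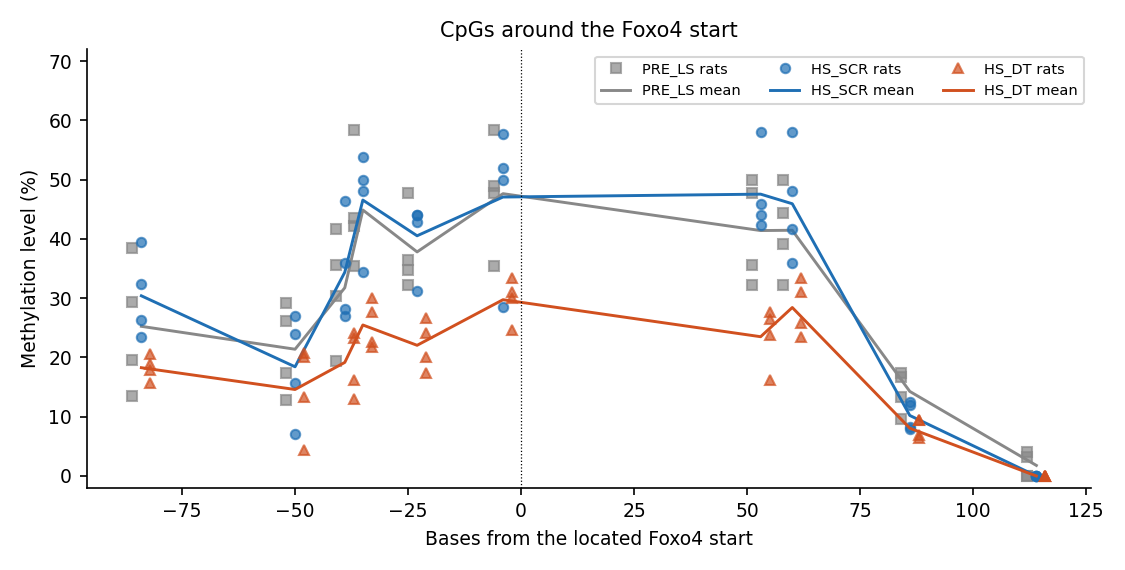
Methylation level (%, y axis) of the 10 common CpGs by distance from the located Foxo4 start (bases, x axis); points are rats, set 2 bases apart by group for legibility, and lines join group means (n = 4 each). The HS_DT line runs below both others from position -84 to 60, and the 3 lines meet at the last CpG near 0%.

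Other bins lower in HS_DT included several within 10 kb of a located start, which held for 5 of the 12 lower and 0 of the 12 higher bins, against 9.50% of all tested bins. The tested bins needed 3 common CpGs and the named bins 5, so this background is not matched for CpG number. A bin 1051 bases upstream of Slc37a1, a sugar phosphate transporter (chr20:12215001-12215500, 6 CpGs), had 7.55, 7.16, 8.36 and 8.91% in HS_DT against 15.9, 13.3, 16.2 and 13.5% in HS_SCR. A bin 4804 bases downstream of the start of Lzts3 (chr3:129677501-129678000, 21 CpGs, 1738 to 2561 reads per rat) had 31.6, 29.7, 30.0 and 28.7% against 35.3, 37.3, 33.9 and 37.5%, with 20 of 21 CpGs lower. PRE_LS rats had 26.7% ± 1.67 at Lzts3, below both groups. A bin 7838 bases upstream of Chmp4b, a subunit of the ESCRT-III membrane-scission complex (chr3:156551001-156551500), had 25.01% ± 1.43 against 32.3% ± 2.09, with all 6 CpGs lower. A bin 4958 bases downstream of the start of LOC134482075 (chr15:2607001-2607500, 8 CpGs) had 8.25% ± 1.23 against 14.1% ± 2.07.

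Farther from starts, a bin 95641 bases upstream of Acvr1b, an activin receptor (chr7:140521501-140522000, 11 CpGs, 1127 to 1974 reads per rat), had 33.5, 28.4, 28.4 and 31.3% in HS_DT against 38.2, 37.6, 46.1 and 40.7% in HS_SCR. The largest difference among the lower bins was on chromosome 6, between the located starts of Dio3 and LOC120103624 (chr6:144002001-144002500, 5 CpGs), with 34.1% ± 2.86 against 50.6% ± 2.90 and PRE_LS rats from 16.8 to 53.7%. A bin 330616 bases upstream of Csmd2 (chr5:149511001-149511500, 66 to 186 reads per rat) had 13.4% ± 3.06 against 28.5% ± 4.60. The bins nearest to Ddx4, Utp18, Fat1 and LOC134482164 differed by -8.20, -13.1, -11.0 and -10.6 points. They lay 309663, 131357, 9148718 and 54505 bases from those starts. The PRE_LS mean lay between the GapmeR groups in 21 of the 24 bins, closer to HS_SCR in 14 and to HS_DT in 10. The SD of PRE_LS was larger than that of both GapmeR groups in 18 of the 24 bins, against 30.5% of all tested bins. The 24 bins were picked for tight and separate GapmeR groups, a selection in which PRE_LS took no part. That selection favours both a PRE_LS mean between the groups and a larger PRE_LS SD. The share of all tested bins with the PRE_LS mean between the groups is not given here, so these counts are a description.

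**Figure D4:**
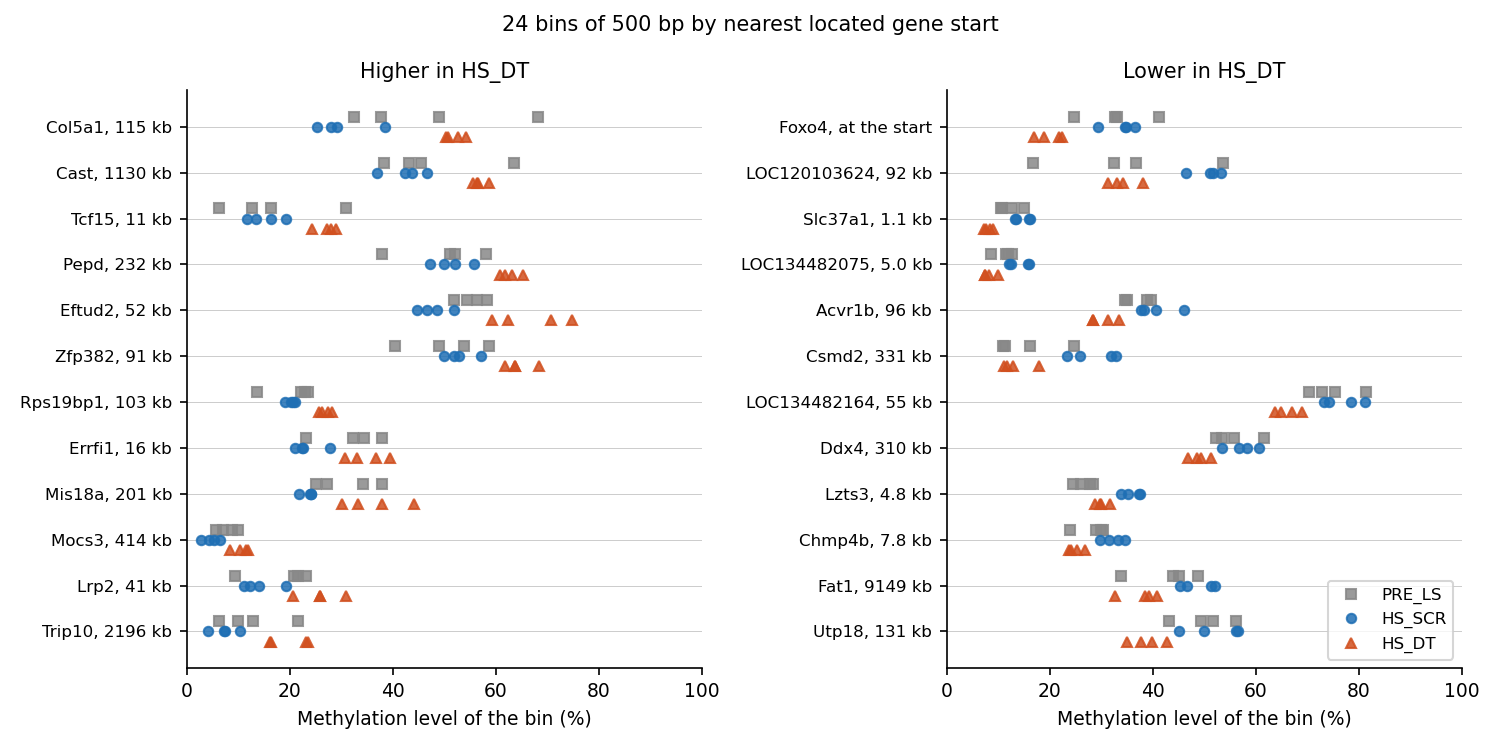
Methylation level (%, x axis) of each rat in the 12 bins higher (left) and 12 lower (right) in HS_DT with the smallest p, named by the nearest located gene start and the distance to it. HS_DT and HS_SCR points are apart in every row because the bins were chosen so, and the PRE_LS points overlap the HS_SCR range in 21 of 24 rows and the HS_DT range in 13.

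Among windows of 5000 bp the smallest p-values were also far from the adjusted threshold. The window chr1:51465001-51470000 (11 CpGs), 107151 bases downstream of the start of Igf2r, the mannose 6-phosphate receptor that clears Igf2, had 71.1, 70.2, 69.7 and 70.8% in HS_DT against 61.6, 65.2, 63.3 and 64.6% in HS_SCR. PRE_LS rats had 64.0% ± 0.927 there, within the HS_SCR range. A window holding the start of Fabp3, a fatty acid carrier of muscle and heart (chr5:152245001-152250000, 29 CpGs), had 6.45% ± 0.941 in HS_DT, 10.5% ± 1.43 in HS_SCR and 6.62% ± 1.87 in PRE_LS. The window between the located starts of Cenpq and Tram2 (chr9:25475001-25480000) had 8.06% ± 0.662, 11.9% ± 0.712 and 8.09% ± 0.870 in HS_DT, HS_SCR and PRE_LS. The other named windows, whose nearest located starts are those of Mis18a, Dhrs11 and LOC120099799 (199736, 60233 and 5917 bases away), differed by 10.5, 6.39 and -3.82 points. The adjusted p was 0.9998 for all 6 (limma-moderated quasi-binomial model).

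At single CpGs the smallest p was at position 109881681 of chromosome 2, 3216125 bases from the nearest located start, Zfp455. Levels were 98.4, 97.8, 100 and 97.7% in HS_DT and 71.0, 91.1, 55.1 and 37.2% in HS_SCR, and 94.2 to 97.5% in PRE_LS, with 31 to 89 reads per rat. The HS_SCR rats were spread over more than 50 points, and the adjusted p was 0.897 (limma-moderated quasi-binomial model). At position 18543968 of chromosome 3, HS_DT rats had 46.7, 40.3, 0 and 0%, all 4 HS_SCR rats 0% and PRE_LS rats 60, 30.5, 0 and 26.7%. That CpG divided the rats of HS_DT and of PRE_LS into high and 0, and it does not separate the groups. At position 142899821 of chromosome 4, 3450 bases downstream of the start of the zinc-finger gene Repin1, HS_DT rats had 71.4 to 87.5% and each HS_SCR rat 100%. The other 3 named CpGs lie on chromosomes 1, 12 and 2, nearest to Mfge8, Ufsp1 and Tiparp, and differed by 29.3, -19.7 and -20.1 points. They are 61194, 30453 and 1291275 bases from those starts.

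Promoters were read from 1000 bases before to 500 after each located start. Of 7922 with at least 3 common CpGs, 7292 had a level under 5%, and 625 lay in the range that was tested. None passed (0 of 625, 0%, and limma called 1, Foxo4). An unadjusted p below 0.05 was reached by 26 (4.16%), 10 higher (1.6%) and 16 lower in HS_DT (2.56%), and the groups did not overlap in 20 (3.2%). These counts and the adjustment include windows that repeat the levels of another window in every rat. With such windows counted once, 140 tested windows were on the X chromosome and 402 on the autosomes. Of those, 8 and 16 had an unadjusted p below 0.05. The Foxo4 promoter, described after its values were seen, had 19.8% ± 2.45 in HS_DT and 33.4% ± 3.396 in HS_SCR (difference -13.6 points, SE 2.09, adjusted p = 0.107 by the limma-moderated quasi-binomial model). The adjusted p at Foxo4 was 0.0442 by limma on log2 ratios and 0.0453 without HS_SCR replicate 3, and 0.0797 to 0.434 under the other alternatives.

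The promoters of the enzymes that write, read or remove DNA methylation were close to unmethylated in all 8 rats. Of 16 genes 9 were located, with 10 promoters, and the highest level, as the mean of the HS_DT and HS_SCR means, was 0.283%. At the downstream start of Tet3 the level was 0.314% ± 0.191 in HS_DT and 0.252% ± 0.0448 in HS_SCR (33 CpGs). At the upstream start, printed above, it was 0.0118, 0.0118, 0.0135 and 0.0422% in HS_DT and 0.0541, 0.0626, 0.229 and 0.0657% in HS_SCR (71 CpGs). The groups did not overlap there, at levels too low for the test. With 6258 to 9291 reads per rat, these levels rest on few methylated reads. Tet2, the sister demethylase, had 0.0533% ± 0.0381 and 0.109% ± 0.0301, and Uhrf1, which guides maintenance methylation, 0.0351% ± 0.0127 and 0.0635% ± 0.0688. The promoter of Dnmt3a was not located and is not analysed here.

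Promoters of sodium transport genes were likewise low. The 8 located of 22 were all under 5%, with differences from -0.562 to 0.323 points. Scnn1b and Scnn1g, subunits of the epithelial sodium channel, had 2.67% ± 1.20 and 0.352% ± 0.264 in HS_DT against 3.11% ± 0.586 and 0.914% ± 0.749 in HS_SCR. Wnk4, a kinase that controls chloride cotransport, had 0.988% ± 0.218 and 0.832% ± 0.350, and Slc9a3, the sodium-proton exchanger, 1.77% ± 0.467 and 1.92% ± 0.613. Of 21 genes of the renin-angiotensin-aldosterone and vasoactive list 3 were located, Ace, Edn1 and Nr3c1, all at 1.22% or less. Of 12 redox genes 5 were located, and the highest was Nox4, a hydrogen peroxide-forming NADPH oxidase of the kidney, with 3.02% ± 0.268 and 2.31% ± 0.766. Over all located promoters the median difference was -0.00282 points, and over the 625 tested promoters it was -0.360 points, with 39.8% higher in HS_DT.

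Marker genes gave no check of the tissue. Promoters of Ptger3 (thick ascending limb), Lrp2 (proximal tubule), Aqp3 and Scnn1g (collecting duct) and Kdr (endothelium) were located, and all 5 lay under 2% in both groups. The promoters of the intercalated, immune and muscle lists were not located.

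Imprinted genes, whose parental copies differ in methylation, had the partly methylated promoters among the lists. Of 22 genes 7 were located with 8 promoters, of which 5 were tested, 0 at an unadjusted p below 0.05. Plagl1, a growth-restraining zinc-finger gene, had 27.5, 29.8, 38.7 and 28.96% in HS_DT against 37.4, 39.0, 38.7 and 32.3% in HS_SCR. HS_DT replicate 3 lay among the HS_SCR rats, and the difference was -5.56 points (SE 2.98, unadjusted p = 0.0699, adjusted p = 0.976 by the limma-moderated quasi-binomial model). Of its 35 CpGs 32 were lower in HS_DT, with no overlap at 2, where 2.57% of all tested CpGs had none. Igf2r had 29.5, 31.8, 29.1 and 25.9% against 25.7, 26.6, 30.3 and 24.8%, with 62 of 76 CpGs higher and the groups overlapping at every CpG. The CpGs of a promoter share their rats and in part their reads, so these counts are not of independent sites. The upstream Gnas start, of the gene for the stimulatory G protein subunit, had 35.1% ± 0.973 against 33.7% ± 4.31, Peg10 39.9% ± 8.55 against 41.0% ± 6.57 and Ndn 14.1% ± 4.01 against 13.9% ± 1.39. Igf2 and Dlk1 were at 2.64% ± 0.256 against 2.56% ± 0.329 and at 1.09% ± 0.247 against 0.784% ± 0.228. Differences at the tested imprinted promoters ran from -5.56 to 2.22 points.

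**Figure D5:**
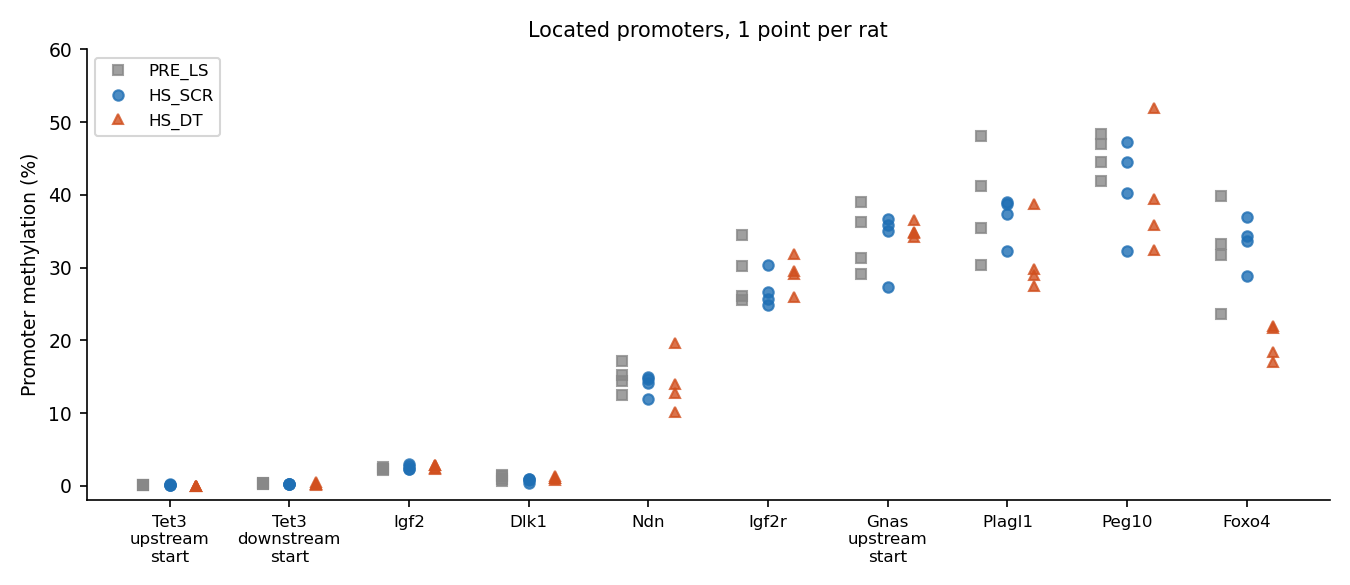
Promoter methylation (%, y axis) of each rat at the 2 Tet3 starts, at 7 imprinted promoters and at Foxo4; colours and symbols give the group (n = 4 each). The Tet3 starts are near 0 in all groups, the imprinted promoters overlap between groups, and at Foxo4 the 4 HS_DT points (17.1 to 22.02%) lie below the HS_SCR points (28.8 to 36.9%).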

How the data were processed

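The deposited table gives, per the file headers, methylated (C) and unmethylated (T) read counts of each rat at 5477824 CpG positions. Per the submitters' processing notes the authors trimmed reads with Trim Galore 0.2.5 and used rn5. The aligner, the methylation caller and any duplicate removal are not stated in those sources. Groups came from the labels, each library being 1 rat. The members and lists were chosen with earlier results of these data known.

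CpGs with 10 or more reads in all 12 libraries were kept. Counts were summed over bins of 500 bp (3 or more CpGs), windows of 5000 bp (10 or more) and promoters, and tested per feature at a pooled level of 5 to 95% by a quasi-binomial model of HS_DT and HS_SCR. The dispersion was moderated with squeezeVar of limma 3.58.1 with a floor of 1, and the group term had a two-sided F test with Benjamini-Hochberg adjustment. The limma alternative used log2 ratios with a pseudocount of 1, and edgeR 4.0.16 tested single CpGs. Mean levels per rat had an exact two-sided permutation test. SE is that of the difference of group means.

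The promoter analysis was planned only with an rn5 annotation, and none was used. It was added after the files were seen, with 300-base RefSeq sequences located by CpG spacing on both orientations. A match needed at least 8 CpGs, at most 1 listed position off the pattern and a lead of 3. Of 33469 sequences 15900 could be searched. A match was found for 8209 on their own chromosome and 67 on the next chromosome, used as a check, and 8082 kept the order of their neighbours. Named bins are the 12 per direction with the smallest p among those with 5 or more CpGs and no overlap, counting once those within 2 points in every rat. In addition the 3 windows and 3 CpGs per direction with the smallest p are named. The quasi-binomial model was also run on simulated counts drawn with the depth, level and dispersion of the real features. That run, whose outcome is not given here, does not check the fit of the model to these rats. Computations used Python 3.11.15, numpy 2.4.6, scipy 1.17.1, pandas 2.3.3 and R 4.3.3, and figures matplotlib 3.10.9.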

Additional observations from a re-analysis of the deposited data

Results flagged for a closer look

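In groups of 4 rats, a rat was picked out when its gap to the nearest other rat, over the range of its group, exceeded Dixon's critical value. This held in 10 of 180 groups of values checked (5.56%), and chance picks out about 1 in 20. HS_SCR replicate 4 was low at CpGs over 50000 bases from a located start, at 39.6% beside 40.4 to 40.6% in the other HS_SCR rats. It was also low at the CpG on chromosome 1 nearest to Mfge8, at 60% beside 70.6 to 71.4%. Its mean level over all common CpGs was not picked out by this rule. HS_SCR replicate 3 stood at 21.8% in the bin nearest to Mis18a (others 23.96 to 24.08%) and at 0.229% at the upstream Tet3 start (others 0.0541 to 0.0657%). HS_DT replicate 4 stood at 0.0422% at that Tet3 start (others 0.0118 to 0.0135%), where levels rest on few methylated reads.

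PRE_LS replicate 2 was low in mean level at CpGs under 20%, at 1.65% beside 1.80 to 1.83%. It was low at CpGs over 1000 and up to 5000 bases from a start, at 25.1% beside 25.4% in the others. It was low in the bin nearest to Rps19bp1, at 13.7% beside 22.2 to 23.5%, and at the CpG near Repin1, at 88.9% beside 100% in each of the others. PRE_LS replicate 4 stood at 9.44% in the bin near Lrp2, beside 20.9 to 23.2%.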

How the results depend on the processing

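No bin passed under any of 19 alternatives and no window under any of 16, with each rat left out included (0 to 0 calls for both). Single CpGs gave 0 calls under 14 of 18 alternatives and 0 to 2 with a rat left out. There was 1 without HS_DT replicate 4 (position 18543968 of chromosome 3, 29.02 points), 1 without HS_SCR replicate 2 (position 109881681 of chromosome 2, 44.1 points) and 2 without HS_SCR replicate 3. Promoters gave 0 to 1 with a rat left out (Foxo4 without HS_SCR replicate 3, -15.2 points) and 1 by limma (Foxo4). Their alternatives were chosen after seeing the data, as was leaving out positions of equal counts or over 10 times the median depth. Of 622 values of the 37 named features under alternatives, 617 kept their direction and side of the threshold, 5 passed it and 0 changed direction. The 24 named bins were picked for groups that do not overlap, so leaving out a rat could not change their direction. A feature that dropped out under an alternative is not counted, such as the bin near Col5a1 at the minimum of 20 reads.

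The replicate numbers do not pair the rats by the labels, and same-numbered rats did not deviate together (correlations over bins of -0.0109, 0.0189, 0.00799 and -0.00589). With the replicate block 1 single CpG passed, position 18543968 of chromosome 3 (adjusted p = 0.0460, limma-moderated quasi-binomial model), and 0 bins, windows and promoters.

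The mean difference over CpGs turned to 0.0234 as a mean over bins and ran from -0.181 to 0.0719 points with a rat left out. With a rat left out it ran from -0.111 to -0.00484 for CpGs under 20%, -0.330 to 0.327 for 20 to 80%, -0.214 to 0.220 over 80%, and -0.284 to 0.188, -0.272 to 0.163, -0.157 to 0.0311 and -0.0723 to -0.00668 for bins of 1 to 2, 3 to 9, 10 to 19 and 20 or more CpGs. All 8 lowest values came without HS_SCR replicate 4. None passed the exact permutation test, but with a rat left out none could, since 4 against 3 rats allow no p below 0.0571. That smallest p was reached with a rat left out for all CpGs and for bins of 10 to 19 CpGs. The cause of the shift without HS_SCR replicate 4 was not tested. The animal numbers of the labels fall under or over 800, with no stated meaning. There were 3 HS_DT, 2 HS_SCR and 0 PRE_LS rats under 800, and 1, 2 and 4 over it, so all PRE_LS rats lie on the same side. Under 800 the mean difference was -0.163 (3 against 2 rats, exact permutation p = 0.2, the smallest possible). Without a filter on the pooled level 6267 bins (4.97%), 1268 windows (4.41%), 56012 CpGs (6.12%) and 453 promoters (5.76%) had an unadjusted p below 0.05; the cause was not tested.

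The median depth was 73 to 88 reads per CpG, and the median SE was 4.62 points per CpG and 2.17 per bin. Differences of a few points could not be detected at single features. Far larger ones did not pass the limma-moderated quasi-binomial model either. The bin near Col5a1 differed by 21.8 points (adjusted p = 0.430) and position 109881681 of chromosome 2 by 34.9 points (adjusted p = 0.897). The lack of calls therefore does not exclude differences of that size at single features.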

Other observations

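Promoters on the X chromosome had another level than those of the autosomes in all 12 rats. Over 141 distinct located promoter windows on X the median level was 25.6% (quartiles 21.8 and 27.9%), and 129 lay from 10 to 40%. Over 6729 autosomal windows the median was 0.0867%, and 94.0% lay under 5%. The mean over X promoters was 26.9, 28.0, 27.1 and 27.5% in the HS_DT rats and 27.5, 28.4, 28.0 and 27.6% in the HS_SCR rats. The groups overlapped, with means of 27.4% ± 0.519 and 27.9% ± 0.394 (difference -0.493 points, exact permutation p = 0.2, adjusted p = 0.2 over X and autosomes). The autosomal means were 2.33% ± 0.0157 and 2.38% ± 0.0554 (exact permutation p = 0.171, adjusted p = 0.2). Of the X windows 140 could be tested and 8 had an unadjusted p below 0.05 (5.71%), against 16 of 402 autosomal ones (3.98%). The Foxo4 promoter lay above the upper quartile of X promoters in HS_SCR and PRE_LS (33.4 and 32.1%) and below the lower quartile in HS_DT (19.8%). HS_DT was lower in 80 of the 140 tested X windows, with a median difference of -0.378 points, and in 243 of the 402 autosomal ones, with a median of -0.412 points.

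The 9 promoters with the next smallest p after Foxo4, a set chosen after its values were seen, are given here, starting with 4 of them. Plekhg5 had 12.004, 11.1, 17.0 and 12.5% in HS_DT against 17.9, 19.6, 29.3 and 19.3% in HS_SCR, and 21.8% ± 3.03 in PRE_LS (adjusted p = 0.908 by the limma-moderated quasi-binomial model). Its HS_DT and HS_SCR rats did not overlap, although HS_DT replicate 3 came within 1 point of HS_SCR replicate 1. Hoxd3, a homeobox gene, had 22.2% ± 3.85 against 31.1% ± 5.48. Kcne3, an accessory subunit of potassium channels, had 14.98% ± 1.30 against 19.9% ± 2.62. Eng, the TGF-beta co-receptor endoglin of endothelium, had 28.3% ± 2.90 against 23.5% ± 0.421, with PRE_LS at 28.7% ± 4.12. Among the others, Ube2q2l, on the X chromosome, had 8.32% ± 6.62 against 23.6% ± 12.8, Adprs 15.99% ± 2.01 against 20.3% ± 2.76 and LOC100912143 56.4% ± 4.72 against 63.7% ± 3.59. Rps10l6 had 41.3% ± 1.79 against 36.03% ± 3.21 and LOC102551968 58.5% ± 3.49 against 48.3% ± 7.05. The groups overlapped at Hoxd3 and at all of these 5 but Rps10l6. None of these promoters passed the adjusted test.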
